A study of Rattus norvegicus with 24 samples.

Results

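The genes described here are those of the major histocompatibility complex (MHC) of the rat and of antigen presentation in the urethra. Every gene whose symbol begins with RT1-, the prefix of the rat MHC, was taken, together with B2m, Tap1, Tap2, Tapbp, Cd74, Ciita, Nlrc5, Psmb8 and Psmb9. This rule found 40 of the 32883 genes in the table, each with its own Ensembl identifier. They comprised 21 class I genes, 10 class II genes, 7 partners of class I (B2m, Tap1, Tap2, Tapbp, Nlrc5, Psmb8, Psmb9) and 2 partners of class II (Cd74, Ciita).

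Urethras of 12-week-old female virgin Sprague-Dawley rats, an outbred stock, were collected after simulated vaginal delivery (SVD), which combines vaginal distension with a crush of the pudendal nerve. All 24 rats had this injury, and no uninjured urethra is among the samples. They received saline, allogeneic mesoangioblasts (MABsallo) or MABsallo transduced to overexpress VEGF (MABsallo-VEGF) into the aorta, and tissue was taken at 3d or 7d. This gave 6 groups of 4 samples. MABs are vessel-associated stem cells that were grown from skeletal muscle of a rat other than the recipient. They carried a lentiviral GFP and luciferase reporter driven by the CMV promoter, and MABsallo-VEGF in addition carried VEGF165 with a truncated CD34 under the SFFV promoter. The labels give the genotype as WT for saline and MABsallo and as VEGF OE for MABsallo-VEGF. According to the methods, VEGF was overexpressed in the injected cells and not in the host. MABsallo-VEGF replicates 6 and 7 at 7d are labelled as recovered.

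MHC class I molecules pair a polymorphic heavy chain with B2m and present peptides from inside the cell, and almost every nucleated cell carries them. The proteasome cuts these peptides, the TAP transporter carries them into the endoplasmic reticulum and tapasin helps to load them. MHC class II molecules are made by professional antigen presenting cells such as dendritic cells, macrophages and B cells, assemble with the invariant chain Cd74 and present peptides from ingested protein to CD4 T cells. Both classes differ between individuals and are what an allogeneic graft is recognised by. The question put to the 6 groups was whether class I and class II moved together after allogeneic cells were given.

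Values are normalized gene counts, the number of 3ʹ sequencing reads of a gene divided by the size factor of its sample. Libraries of this kind read the 3ʹ end of a transcript and not its length. Samples held 2170695 to 10166052 reads, so that 1 read was worth 1.67 to 9.23 normalized counts, and MABsallo at 3d was the shallowest group with 2170695 to 4491900 reads. Of the 40 genes, 31 had a mean of at least 2 normalized counts and entered the fit, namely 13 class I genes, 9 class II genes and all 9 partners. RT1-CE3, RT1-M4, RT1-M5, RT1-M6-1 and RT1-M6-2 were at 0 in all 24 samples. RT1-CE1, RT1-M2, RT1-S2 and the class II gene RT1-Ha had at most 4 reads in any sample. The filter used the mean of all samples, and Nlrc5 and RT1-T24-1 passed it through the groups in which they had reads.

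A gene is called here when its adjusted p in limma is below 0.05 and its log2 difference is beyond 1. Differences are on the scale of log2(normalized gene count + 1), which understates the change of low genes. In a principal component analysis, saline 3d replicate 6 and MABsallo-VEGF 3d replicate 4 stood apart from their groups. On the first component, which held 70.7% of the variance, saline 3d replicate 6 scored 54.6 and the others of its group -52.3 to -6.4. MABsallo-VEGF 3d replicate 4 scored 0.7 and the others of its group 57.3 to 75.2. Results that rest on these samples are given with and without them. The urethra is a mixed tissue, and in bulk RNA fewer cells of a type cannot be told apart from less RNA per cell. Reads of donor and of host cells cannot be told apart either.

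The 200 bases before the transcription start of 5 members are printed because class II genes moved together at 3d, with a class I gene beside them for comparison. Of the 40 members, 34 had a promoter in RefSeq on GRCr8, a newer build than the Rnor6.0 genome on which the reads were counted. Capitals mark 3 motifs on either strand, the Y box CTGATTGG, the NF-kB motif GGGATTCCC and the interferon motif GAANNGAAA (reverse complements CCAATCAG, GGGAATCCC and TTTCNNTTC). The first 4 sequences are of class II genes and the last is of a class I gene.
RT1-Da: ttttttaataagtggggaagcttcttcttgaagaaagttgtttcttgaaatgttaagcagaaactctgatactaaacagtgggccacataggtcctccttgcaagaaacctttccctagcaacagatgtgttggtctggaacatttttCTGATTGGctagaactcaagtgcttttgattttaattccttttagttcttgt
RT1-Ba: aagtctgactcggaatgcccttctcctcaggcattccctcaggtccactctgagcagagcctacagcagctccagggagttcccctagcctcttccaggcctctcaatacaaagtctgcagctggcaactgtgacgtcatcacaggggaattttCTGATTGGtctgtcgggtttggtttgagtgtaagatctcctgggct
RT1-Db1: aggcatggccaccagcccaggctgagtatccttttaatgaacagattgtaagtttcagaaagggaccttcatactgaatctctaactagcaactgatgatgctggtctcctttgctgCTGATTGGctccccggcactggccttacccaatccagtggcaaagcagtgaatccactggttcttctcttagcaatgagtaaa
RT1-DMa: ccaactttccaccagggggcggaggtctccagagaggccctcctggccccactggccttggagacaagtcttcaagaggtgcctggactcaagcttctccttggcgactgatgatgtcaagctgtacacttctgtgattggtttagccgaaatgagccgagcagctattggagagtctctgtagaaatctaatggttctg
RT1-A2: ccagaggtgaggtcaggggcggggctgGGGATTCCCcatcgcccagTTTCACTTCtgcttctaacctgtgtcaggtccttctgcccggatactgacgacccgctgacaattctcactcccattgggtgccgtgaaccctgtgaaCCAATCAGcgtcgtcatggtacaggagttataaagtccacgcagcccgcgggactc

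On GRCr8 these windows lie at chr20:4515215-4515414 on the plus strand for RT1-Da, at chr20:4576857-4577056 on the plus strand for RT1-Ba and at chr20:4560163-4560362 on the minus strand for RT1-Db1. The window of RT1-DMa lies at chr20:4712336-4712535 on the minus strand and that of RT1-A2 at chr20:4872671-4872870 on the plus strand. In 250 bases before the start, the Y box was present in 7 of 9 class II promoters (RT1-Da, RT1-Db1, RT1-Db2, RT1-Ba, RT1-Bb, RT1-DOa, RT1-Ha), 4 of 18 class I promoters and 3.19% of all 33469 promoters. In the class II genes it began 46 to 120 bases before the start, and these letters were not in the windows of RT1-DMa and RT1-DOb. The NF-kB motif was in 4 of 18 class I promoters (RT1-CE10, RT1-CE4, RT1-A2, RT1-A1), 0 of 9 class II promoters and 0.272% of all. The interferon motif was in 7 of 18 class I promoters, 0 of 9 class II promoters and 7.12% of all, and it was also found in Tap2, Tapbp and Cd74. A match describes letters only and is not evidence of a bound factor. Some class I promoters were close copies of each other, as RT1-A1 and RT1-A2 shared an unbroken run of 71 of 300 bases, whereas the longest run between 2 class II promoters was 14 bases (RT1-Db1 and RT1-Bb). Of the 153 pairs of class I promoters 21 shared a run of more than 14 bases, and the median run was 9 bases in both classes.

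At 3d, class II genes were lower in MABsallo than in saline, whereas most class I genes were not called. All 9 class II genes fitted had a lower mean log2 value in MABsallo, with a median log2 difference of -1.49 against 0.07 for all genes tested. Of these, 5 were called, all lower, and Cd74 was called lower as well. Of the 13 class I genes 1 was called, higher, and the median was 0.13. In this comparison 12.3% of all 16287 genes tested were called, 2.86% lower and 9.40% higher, with limma. edgeR and DESeq2 each called 7 members, where they called 8.22% and 9.45% of all genes. Of all genes called 76.7% were higher, a split that became 51.9% when samples were scaled to the same total (2123 of 16267 genes called), while the members called were then 8 lower, among them the class I gene RT1-N3, and 2 higher. Of the members 8 were called in all, but 2 without saline replicate 8, 3 without MABsallo replicate 1 and 0 when these 2 groups alone were fitted, in which case 5 of 16474 genes were called and 9 members had an unadjusted p below 0.05. The share of all genes called without a sample, or below that p in the fit of 2 groups, is not given here. Whether members lost calls more often than genes in general therefore cannot be read from these counts.

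RT1-Db1, the β chain of the D molecule, had 3168, 11367, 4653 and 1745 normalized counts in saline replicates 6, 8, 9 and 10 at 3d. In MABsallo replicates 1 to 4 it had 553.8, 722.1, 1154 and 987.3, and in MABsallo-VEGF replicates 1 to 4 it had 2168, 4026, 1791 and 4181. Every MABsallo sample was thus below every saline and every MABsallo-VEGF sample of 3d. The log2 difference between MABsallo and saline was -2.33 ± 0.51 (SE, n = 4 and 4, adjusted p = 0.0087, limma), a level 5.03-fold lower, and -2.46 (adjusted p = 0.0038) without the 2 samples that stood apart. Of 16 alternatives the call was lost in 1, the fit of these 2 groups alone (adjusted p = 0.061).

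RT1-Da, the α chain of the same molecule, had 2517, 4900, 4342 and 2773 normalized counts in saline and 1143, 1368, 2077 and 884.2 in MABsallo. The groups did not overlap here either, and the highest MABsallo sample was below the lowest saline sample. The difference was -1.42 ± 0.44 (adjusted p = 0.032, limma), that is 2.68-fold. The call was lost in 6 of 16 alternatives, with the 2 groups alone and without saline replicate 8 or 9 or MABsallo replicate 1, 2 or 4 (adjusted p up to 0.116). MABsallo-VEGF had 2579, 6768, 3214 and 6394, within or above the range of saline.

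Cd74, the invariant chain that guides class II molecules through the cell, had 5716, 17525, 7537 and 4480 normalized counts in saline and 2024, 1997, 4514 and 1953 in MABsallo. MABsallo replicate 3 lay just above the lowest saline sample, and the other 3 MABsallo samples lay below the saline range. The mean was 8814 ± 5941 (SD, n = 4) in saline and 2622 ± 1262 in MABsallo. The log2 difference was -1.64 ± 0.42 (adjusted p = 0.015, limma), and the call was lost in 3 of 16 alternatives, with the 2 groups alone and without saline replicate 8 or MABsallo replicate 1 (adjusted p up to 0.081).

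RT1-Ba, the α chain of the B molecule, had 261.7, 1223, 882.7 and 425.8 normalized counts in saline and 276.9, 196.9, 304.6 and 113.9 in MABsallo. The ranges overlapped only through saline replicate 6, one of the samples that stood apart. With all samples the difference was -1.49 ± 0.50 (adjusted p = 0.046, limma), and without the 2 samples it was -1.88 (adjusted p = 0.011). The call was lost in 9 of 16 alternatives, with no filter, with the 2 groups alone and without saline replicate 8, 9 or 10 or any single MABsallo sample (adjusted p up to 0.19).

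RT1-DMa and RT1-DMb form DM, the chaperone that exchanges peptides on class II molecules. RT1-DMa had 199.7, 623.2, 203.7 and 200.6 normalized counts in saline and 21.3, 114.9, 92.32 and 130.2 in MABsallo. RT1-DMb had 864.3, 1211, 1040 and 791.8 in saline and 149.1, 574.4, 397 and 455.7 in MABsallo. Neither gene overlapped between the groups, and MABsallo replicate 1 was the lowest sample for each. The differences were -1.84 ± 0.56 for RT1-DMa (adjusted p = 0.030) and -1.45 ± 0.39 for RT1-DMb (adjusted p = 0.018, limma). Both calls were lost with the 2 groups alone and without saline replicate 8 or MABsallo replicate 1, and that of RT1-DMa also without MABsallo replicate 3.

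The other class II genes were not called. RT1-DOb, a chain of DO, which restrains DM, had 6.887, 27.44, 14.3 and 14.08 normalized counts in saline and 0, 5.471, 0 and 5.425 in MABsallo. The groups did not overlap, but no sample held more than 7 reads, and the difference of -2.57 ± 0.91 missed the threshold (adjusted p = 0.057, limma). It passed without the 2 samples that stood apart, at -2.88 (adjusted p = 0.041). RT1-DOa, its partner chain, differed by -1.89 ± 1.06 (adjusted p = 0.23) and RT1-Db2 by -0.62. Ciita, the transactivator of class II genes, had 5.425 to 175.4 normalized counts in MABsallo and 7.038 to 103.3 in saline. These ranges overlapped widely, and the difference was -0.55 ± 0.92 (adjusted p = 0.72). In all, 5 of the 9 class II genes did not overlap between the groups with MABsallo lower, against 5.22% of all genes tested.

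**Figure D1:**
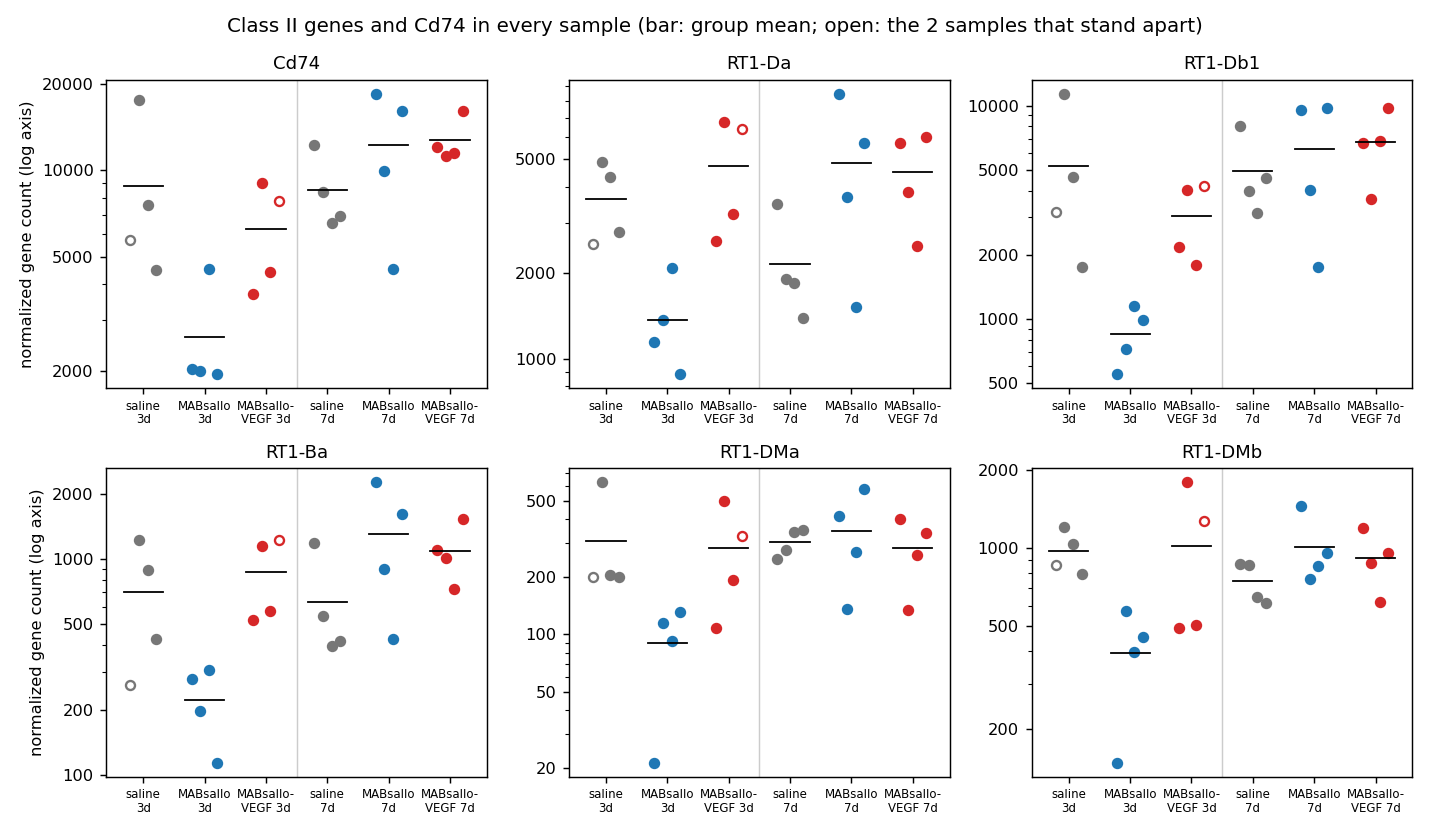
Normalized gene counts (log axis) of Cd74 and 5 class II genes in each of the 24 samples, by group; horizontal bars are group means of 4 samples and open points are saline 3d replicate 6 and MABsallo-VEGF 3d replicate 4. In MABsallo at 3d RT1-Db1 lay between 553.8 and 1154, below the 1745 to 11367 of saline at 3d.

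On the class I side the partners that are measured at high levels were close between the groups. B2m, the light chain, had 34898, 52445, 35777 and 39350 normalized counts in saline and 27584, 39663, 46278 and 41890 in MABsallo at 3d. The ranges overlapped, and the difference was -0.07 ± 0.25 (adjusted p = 0.88, limma). Tap1, a subunit of the peptide transporter, had 502.7 to 752.6 in saline and 295.4 to 884.2 in MABsallo, a difference of -0.40 ± 0.33 (adjusted p = 0.42). The immunoproteasome subunits Psmb8 and Psmb9 differed by -0.23 and 0.11 and tapasin (Tapbp) by 0.13, none of them called, and the signs for Psmb9 and Tapbp turned (-0.17 and -0.14) when samples were scaled to the same total.

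Of the class I heavy chains only RT1-CE7, described below, was called with the reported settings. RT1-A1, a classical class I gene, had 137.7, 333.2, 625.4 and 929 normalized counts in saline and 710, 645.6, 1459 and 1004 in MABsallo at 3d, which overlapped (1.16 ± 0.47, adjusted p = 0.093, limma). RT1-N3 differed by -0.97 ± 0.35 (adjusted p = 0.062), and by -1.25 (adjusted p = 0.027, limma) when samples were scaled to the same total, where it was called lower. With the reported scaling, the remaining class I genes, RT1-CE7 apart, had adjusted p of 0.073 or more. Summed over all class I genes, the samples held 5089 ± 638 normalized counts (SD, n = 4) in saline and 5799 ± 1416 in MABsallo.

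The 2 genes called higher on the class I side were low. RT1-CE7, a class I gene of the C/E region, had 34.43, 0, 3.574 and 7.038 normalized counts in saline and 269.8, 142.2, 249.3 and 21.7 in MABsallo at 3d. MABsallo replicate 4 fell within the saline range and the other 3 samples above it. The difference was 4.34 ± 1.06 (adjusted p = 0.013, limma), and it was not called without saline replicate 8 or with the 2 groups alone. Nlrc5, the transactivator of class I genes, had 0 reads in all 4 saline samples and 1, 2, 5 and 4 reads in MABsallo replicates 1 to 4. Its mean of 21.5 normalized counts was at least 1.98-fold higher than the level that 3 reads in each saline sample would give. It was called with limma (adjusted p = 0.0089), but neither edgeR nor DESeq2 called it on the recovered reads. Tap2, the second transporter subunit, had at most 56.8 normalized counts and did not pass (2.41 ± 1.20, adjusted p = 0.17).

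**Figure D2:**
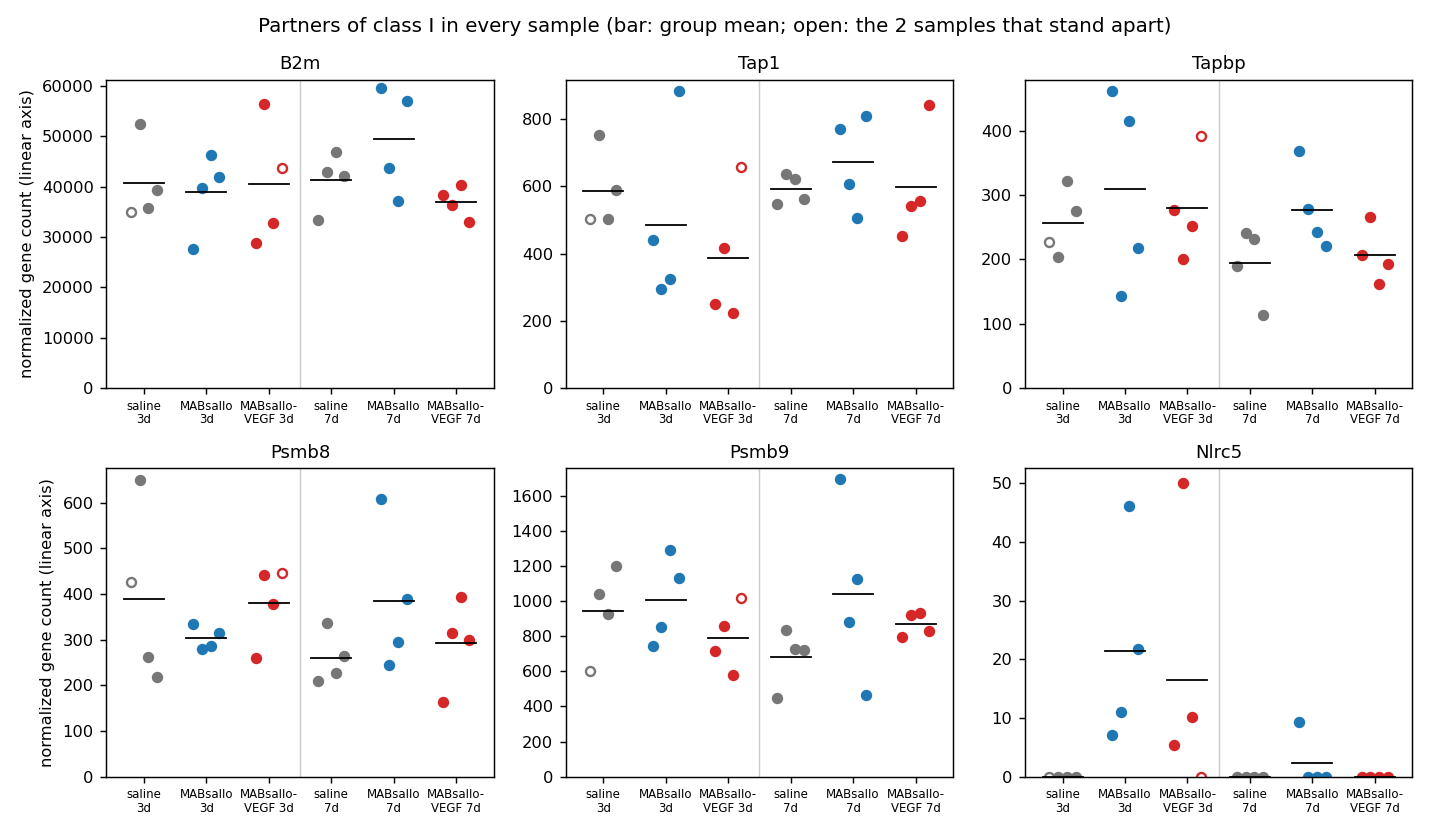
Normalized gene counts (linear axis from 0) of 6 partners of class I in each of the 24 samples, by group; horizontal bars are group means of 4 samples and open points are the 2 samples that stood apart. B2m ranged from 27584 to 59617 over all samples with groups that overlap, and Nlrc5 was at 0 in every saline sample.

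No member of either class was called between MABsallo-VEGF and saline at 3d. Of the 31 genes 0 were called with limma, edgeR or DESeq2, where limma called 0.0307% of all genes, edgeR 0.00614% and DESeq2 1.93%, and 5 had an unadjusted p below 0.05 against 17.9% of all genes. The class II median was 0.45, the class I median -0.42 and that of all genes 0.04. Cd74, RT1-Da, RT1-Db1, RT1-Ba, RT1-DMa and RT1-DMb differed from saline by -0.54 to 0.45. Without the 2 samples that stood apart 13.6% of all genes were called, and with them 4 members, none of class II. These were Nlrc5 and RT1-CE7, called higher, and RT1-S3, a class I gene, and Tap1, which fell by 1.44 (adjusted p = 0.0073) and 1.09 (adjusted p = 0.033, limma) in MABsallo-VEGF. The class II median was then -0.02.

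Set against MABsallo directly, MABsallo-VEGF at 3d had higher mean log2 values of all 9 class II genes, with a median of 1.79 against -0.03 for all genes and -0.55 for class I. None was called with limma, in which 0.00614% of all genes were called and the lowest adjusted p of a member was 0.30. edgeR and DESeq2 also called none, where each called 0% of all genes. Of the class II genes, 7 had an unadjusted p below 0.05, against 6.13% of all genes, and 5 did not overlap with MABsallo-VEGF higher, against 0.853% of all genes. The 5 were RT1-Da, RT1-Db1, RT1-Ba, RT1-Bb and RT1-DOb. For the 6 genes called in MABsallo against saline, the differences ranged from 1.25 to 1.94 (adjusted p of 0.30 to 0.63). RT1-Ba had 519.1, 1150, 570.1 and 1224 normalized counts in MABsallo-VEGF, and every sample was above the 113.9 to 304.6 of MABsallo. RT1-DMb had 492, 1792, 504.5 and 1273, of which replicates 1 and 3 lay within the range of MABsallo. The comparisons at 3d share samples, so they are not independent of each other.

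**Figure D3:**
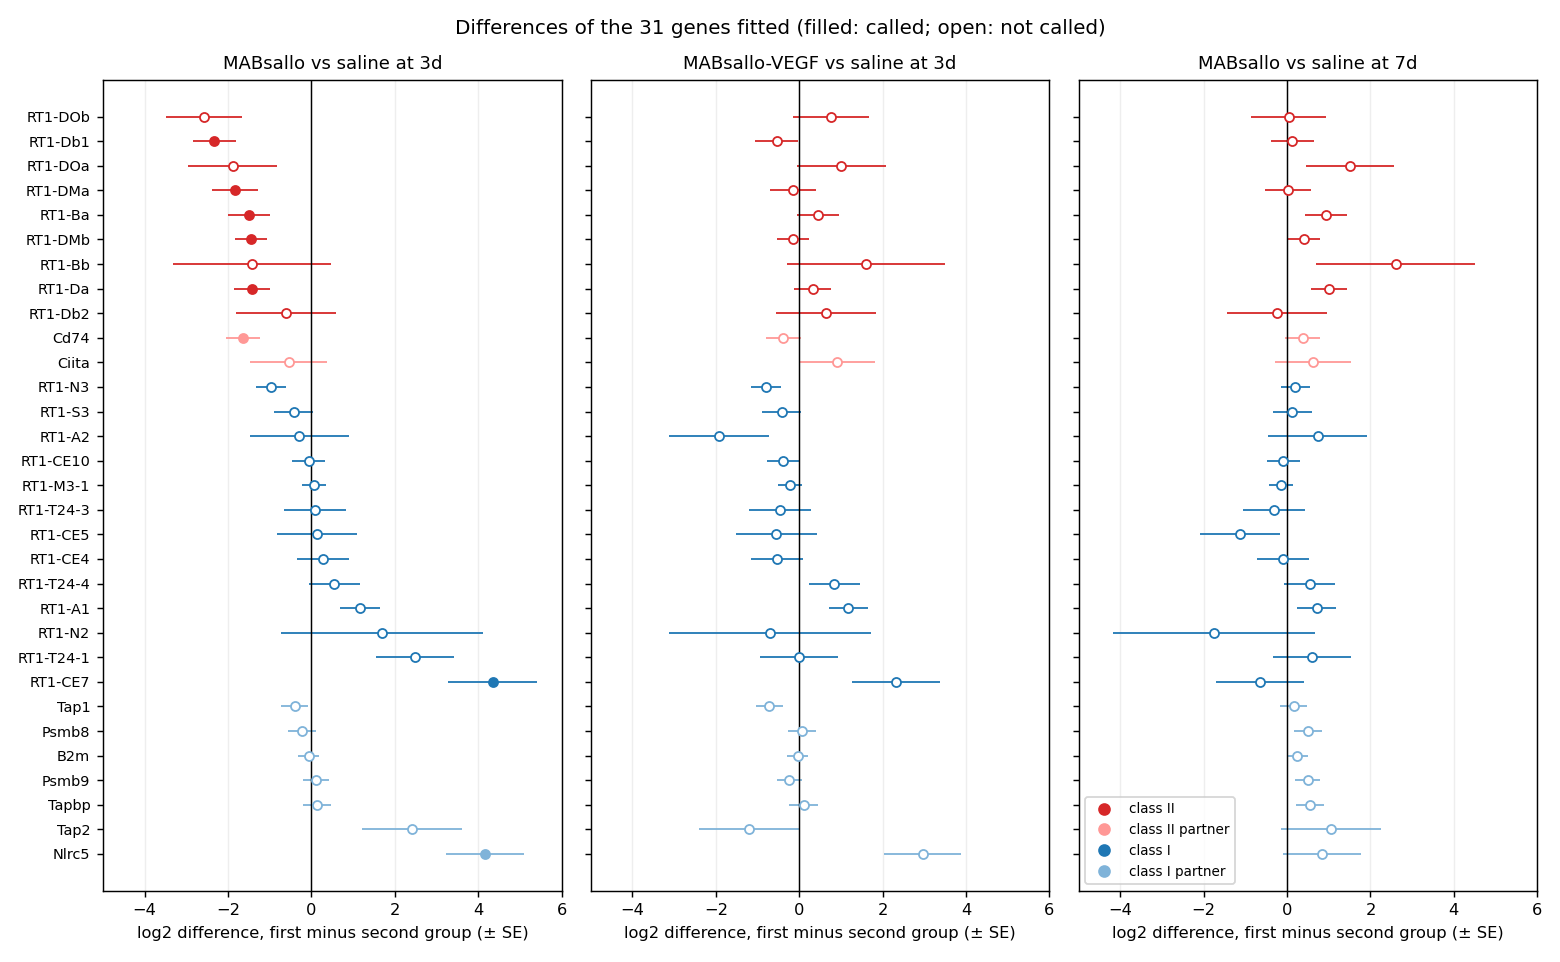
Log2 differences ± SE of the 31 fitted genes for MABsallo against saline at 3d, MABsallo-VEGF against saline at 3d and MABsallo against saline at 7d; filled points are called. Class II genes have a median of -1.49 in the first panel, 0.45 in the second and 0.40 in the third.

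At 7d no gene of either class was called between treatments, and over all genes 0% were called in each of the 3 comparisons with limma. Neither edgeR nor DESeq2 called a member. Of all genes edgeR called 0% in each comparison. DESeq2 called 0% for MABsallo against saline, 0.134% for MABsallo-VEGF against saline and 0.0199% for MABsallo-VEGF against MABsallo. Members with an unadjusted p below 0.05 numbered 1 for MABsallo against saline (6.23% of all genes) and 1 for MABsallo-VEGF against saline (6.34%). For MABsallo-VEGF against MABsallo there were 0 (2.78%). RT1-Da was the member in the first 2, with 3480, 1909, 1842 and 1384 normalized counts in saline replicates 1, 2, 3 and 5, and 8484, 3679, 1523 and 5702 in MABsallo replicates 7.2, 9, 11 and 13. MABsallo replicate 11 lay within the saline range and the other 3 above it. The difference was 0.9998 ± 0.44 (adjusted p = 0.77, limma). The class II median was 0.40 in MABsallo against saline, 0.46 in MABsallo-VEGF against saline and -0.13 between the cell groups.

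Between the days, class II genes were lower at 3d than at 7d in MABsallo, and no member was called in saline. In saline, 0 members were called between 3d and 7d with limma, edgeR or DESeq2, where these called 3.19%, 6.07% and 6.87% of all genes, and limma 0.190% without the 2 samples that stood apart, while 2 members had an unadjusted p below 0.05 (18.8% of all genes). In MABsallo 23.0% of all genes were called, 6.05% lower and 17.0% higher at 3d. There 5 of 9 class II genes and Cd74 were called lower at 3d (9 members had an unadjusted p below 0.05, against 40.9% of all genes), with a class II median of -1.64 against 0.06 for all genes. Of the 9 class II genes, 4 did not overlap with 3d lower, against 9.33% of all genes.

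Cd74 had 18430, 9930, 4526 and 15994 normalized counts in MABsallo replicates 7.2, 9, 11 and 13 at 7d. Each was above the 1953 to 4514 of MABsallo at 3d, by a narrow margin for replicate 11. The difference was -2.13 ± 0.42 (adjusted p = 0.00068, limma). RT1-Db1 differed by -2.62 ± 0.51 (adjusted p = 0.00069), RT1-Ba by -2.37 ± 0.50 (adjusted p = 0.0012) and RT1-DMa by -2.03 ± 0.56 (adjusted p = 0.0079). On the class I side, RT1-CE7 was again called higher at 3d, with 3.097 to 12.45 normalized counts at 7d, where it was within the limit of 3 reads in every sample (4.31 ± 1.06, adjusted p = 0.0037, limma). Its mean at 3d was at least 18.6-fold higher than 3 reads per sample at 7d. The class I gene RT1-N3, not called with the reported scaling, was called lower at 3d with samples scaled to the same total (-1.06, adjusted p = 0.034, limma). Nlrc5 had 3 reads in all at 7d, in replicate 7.2, and was called with limma (adjusted p = 0.0091) and not with edgeR or DESeq2. MABsallo at 3d is part of this comparison and of that with saline, so their values stand side by side and neither supports the other.

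In MABsallo-VEGF, 15.3% of all genes were called between the days and 2 of the members with limma, and 6 members had an unadjusted p below 0.05 against 33.4% of all genes. edgeR called Nlrc5, RT1-CE7 and RT1-DOb higher at 3d, where it called 16.0% of all genes. DESeq2 called RT1-CE7 and RT1-DOb higher at 3d, where it called 14.1%. RT1-DOb had 27.04, 25, 30.27 and 17.81 normalized counts at 3d and 0, 2.852, 6.207 and 3.152 at 7d, groups that did not overlap (2.97 ± 0.91, adjusted p = 0.024, limma). Its samples at 3d held few reads, as above, and the call was lost without MABsallo-VEGF replicate 2 or 3 at 3d or replicate 6 at 7d. Nlrc5 was called higher at 3d (2.96 ± 0.93, adjusted p = 0.027), with 1, 6, 2 and 0 reads at 3d and 0 at 7d. This call was lost in 8 of 15 alternatives, with DESeq2, with the 2 groups alone and without MABsallo-VEGF replicate 2 or 3 at 3d or any single sample of 7d (adjusted p up to 0.136). Cd74 had 3704, 8984, 4424 and 7832 normalized counts at 3d and 12054, 11173, 11488 and 16061 at 7d. The groups did not overlap, with 3d lower, and the difference of -1.11 ± 0.42 missed the threshold (adjusted p = 0.063, limma) and passed without the 2 samples (adjusted p = 0.049). Cd74 was also called lower with samples scaled to the same total, where 3 members and 2467 of 16267 genes were called. With the 2 groups alone, Cd74 and RT1-Db1 were called lower, where 3 members and 2190 of 16241 genes were called. Without the 2 samples that stood apart 5 members were called, where 20.3% of all genes were, and these were RT1-DOb, Nlrc5, Cd74, RT1-CE7 and Tap1.

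The difference between MABsallo and saline was itself compared between 3d and 7d. This interaction was negative for all 9 class II genes, with a median of -2.42 against 0.08 for all genes and 0.36 for class I. With limma 0 members and 0% of all genes were called, and 10 members had an unadjusted p below 0.05 against 13.6% of all genes. RT1-Da had -2.42 ± 0.62 and Cd74 -2.02 ± 0.59, each with an adjusted p of 0.19. edgeR called 0 members and 0% of all genes. DESeq2 called Cd74, RT1-Ba, RT1-Da and RT1-Db1, where it called 0.357% of all genes. Without the 2 samples that stood apart, RT1-Da (adjusted p = 0.030), RT1-Ba (adjusted p = 0.029) and RT1-CE7 (adjusted p = 0.026) were called, against 3.56% of all genes. In that fit 8 of the 9 class II genes were negative, with a median of -2.59. For MABsallo-VEGF against saline the same interaction had a class II median of -0.04, and 0 members and 0% of all genes were called with limma. There 2 members had an unadjusted p below 0.05, against 8.23% of all genes. edgeR and DESeq2 called none, where they called 0% and 0.00496% of all genes. Without the 2 samples 0 members were called, where 3.59% of all genes were.

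The balance of the classes can be read within each sample as the share of class II in the summed counts of class I and class II genes. This share was 34.8%, 38.0%, 50.5% and 24.9% in MABsallo replicates 1 to 4 at 3d. In saline at 3d it was 56.0% to 81.6% and in MABsallo-VEGF at 3d 68.2% to 77.1%. At 7d it was 52.3% to 66.6% in saline, 59.9% to 78.6% in MABsallo and 58.2% to 78.3% in MABsallo-VEGF. Each MABsallo sample of 3d was thus below all 20 samples of the other groups, as a description of values that include the genes tested above. This separation was lost when the highest gene of each class, RT1-A2 and RT1-Db1, was left out. The share in MABsallo at 3d was then 20.6% to 45.2%, and saline 7d replicate 5 (35.5%) and MABsallo-VEGF 7d replicate 11 (42.7%) lay within that range. The summed class II counts at 3d were 12012 ± 6584 (SD, n = 4) in saline, 3418 ± 1197 in MABsallo and 11892 ± 5131 in MABsallo-VEGF. Without RT1-Bb, whose levels split as described below, the mean shares at 3d were 65.1%, 33.9% and 67.6%.

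Markers of macrophages and monocytes moved in the same direction at 3d. Their summed level was 30177 to 62640 normalized counts in saline, 3486 to 23957 in MABsallo and 8338 to 54265 in MABsallo-VEGF, over 14 markers. Against saline, 5 of the 14 were called lower in MABsallo and 13 had a negative difference, with a median of -1.58. Lyz2, C1qb, C1qc, Csf1r and C1qa were the 5, and C1qb fell by 2.26 (adjusted p = 0.011, limma). The dendritic cell markers were mixed, with 4 of 8 higher and 4 lower in MABsallo and a median of -0.28. Of these Clec10a was called, and it fell by 2.03 (adjusted p = 0.028, limma). Without the 2 samples that stood apart Zbtb46 and Siglech were called higher and Clec10a and Clec9a lower. The sum of all 10 dendritic cell markers listed, fitted or not, was 3705 to 10901 in saline and 454.4 to 3485 in MABsallo. Such a sum follows its highest genes. Of the B cell markers, Cd79a and Pax5 were at 0 in all samples and none of the 4 fitted was called. MABsallo-VEGF had 0 macrophage markers called against saline, where limma called 0.0307% of all genes. There too 13 of the 14 had a negative difference, with a median of -0.47. Without the 2 samples that stood apart 12 were negative, with a median of -0.78. Cd74 per 100 counts of the macrophage markers was 11.2 to 28.0 in saline and 8.34 to 58.0 in MABsallo at 3d, and these ranges overlapped. The part of these cells in the class II result was not tested.

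**Figure D4:**
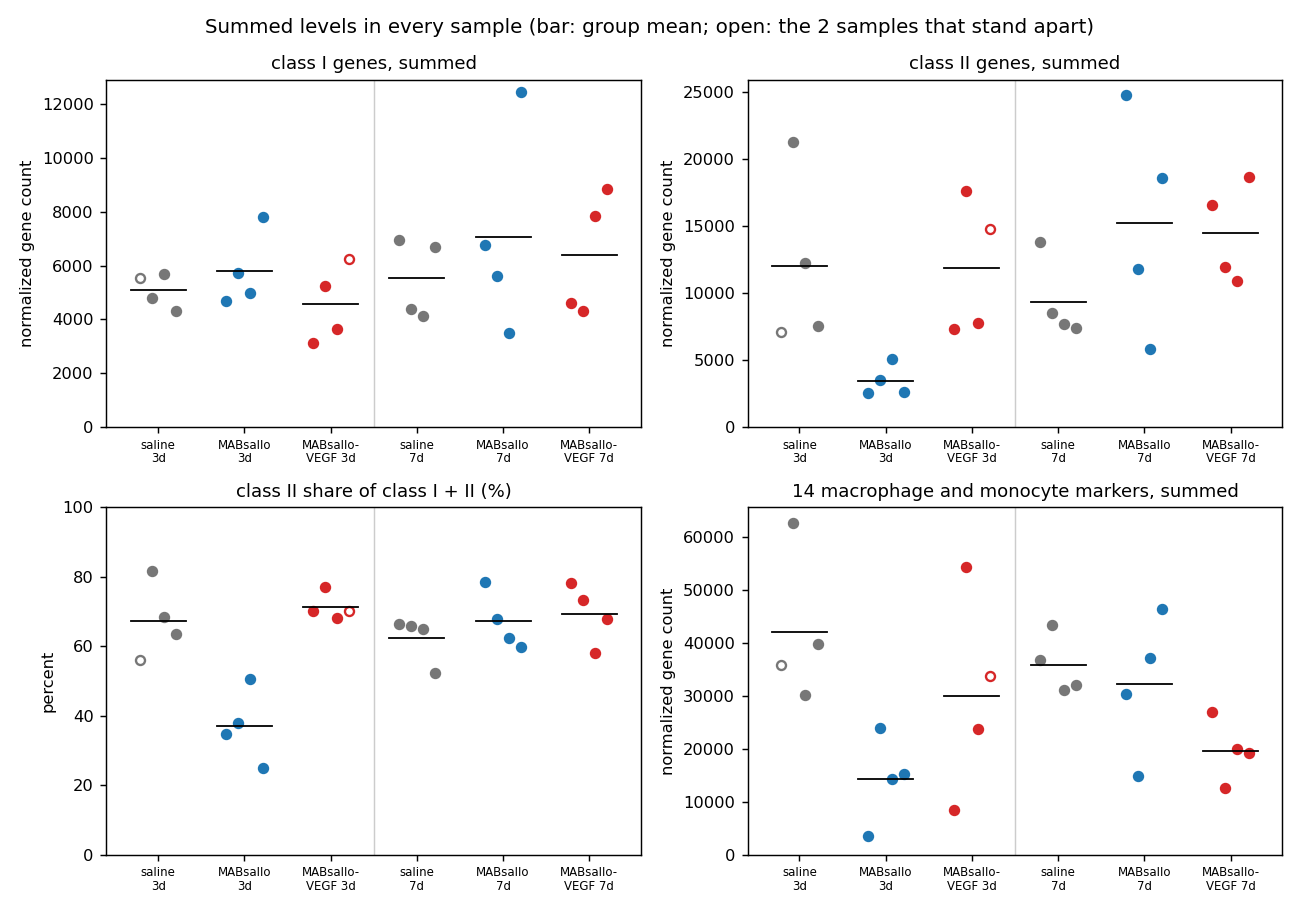
Class I genes summed, class II genes summed, the share of class II in their total (percent) and 14 macrophage and monocyte markers summed, in each of the 24 samples by group; bars are means of 4 samples and open points are the 2 samples that stood apart. The class II share in MABsallo at 3d lay between 24.9% and 50.5%, below all other samples, a separation that was lost without RT1-A2 and RT1-Db1.

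Further genes of the 2 pathways were taken from lists chosen with earlier results of these data known. On the class II side, which holds the cathepsins, Lgmn, Ifi30, the RFX factors and costimulatory molecules, 0 of 11 fitted genes were called in MABsallo against saline at 3d. Here 9 had a negative difference, with a median of -0.34. Ctsb (-0.93 ± 0.31, adjusted p = 0.044) and Ifi30 (-0.95 ± 0.30, adjusted p = 0.037), a lysosomal protease and a lysosomal thiol reductase, passed the p threshold in limma but not that of size. On the class I side, which holds the chaperones, Erap1 and constitutive and inducible proteasome subunits, 0 of 13 were called, with a median of 0.02. Of 19 interferon response genes 0 were called, with a median of 0.43, and Ifng and Ifnb1 were at 0 in all samples. Without the 2 samples that stood apart, 18.1% of all genes were called in MABsallo against saline at 3d. Then 1 gene of the class II side was called lower, 1 of the class I side higher and 0 of the interferon genes. The same 3 lists had 0 calls in MABsallo-VEGF against saline at 3d, with and without the 2 samples.

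Several RT1 genes were high in some samples and near 0 in others of the same group. RT1-Bb, the β chain of the B molecule, had 34.43, 1885, 1090 and 1545 normalized counts in saline, 355, 497.8, 1034 and 10.85 in MABsallo and 1444, 3309, 1473 and 1349 in MABsallo-VEGF at 3d. At 7d it had 13.53, 945.9, 1273 and 6.289 in saline, 2661, 2285, 950.8 and 29.05 in MABsallo and 1491, 2413, 12.41 and 18.91 in MABsallo-VEGF. Over all 24 samples, 7 lay at 6.29 to 34.4 and 17 at 355 to 3309, with none between. The 7 were spread over 5 of the groups, and RT1-Ba, which encodes the partner chain, did not share the split.

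These 7 samples also differed in class I genes. All 7 were among the 7 highest samples for RT1-CE4, 6 were among the 7 highest for the classical class I gene RT1-A2 and 5 for RT1-N2. For RT1-T24-4, 5 were among the 7 lowest and 0 among the 7 highest. For RT1-A1, 5 were among the 7 lowest and the other 2 among the 7 highest. RT1-CE4 had 2013 normalized counts in MABsallo replicate 4 at 3d and 2652 in MABsallo replicate 13 at 7d, against 443.1 to 984.7 and 435.4 to 573 in the others of their groups. RT1-A2 ranged from 83.3 to 5831 normalized counts, with 9 samples up to 222 and 15 from 906 upward. RT1-N2 was at most 16.7 in 13 samples and 83 or more in 11.

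The spread within groups on the log2 scale was 3.86 for RT1-N2, larger than in 99.99% of genes tested, 3.06 for RT1-Bb (99.93%) and 1.91 for RT1-A2 (95.96%). For B2m it was 0.30 (11.38%). A fold change between groups therefore carried a wide error for these genes, as for RT1-Bb with -1.42 ± 1.90 in MABsallo against saline at 3d. Reads that mapped to more than 1 place were discarded by the authors, and some RT1 class I genes are near-identical to each other. Genes of both classes also differ between individuals, as stated above. Counts of single RT1 genes are therefore uncertain where copies share sequence or differ from the reference genome, and the cause of the split was not tested.

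**Figure D5:**
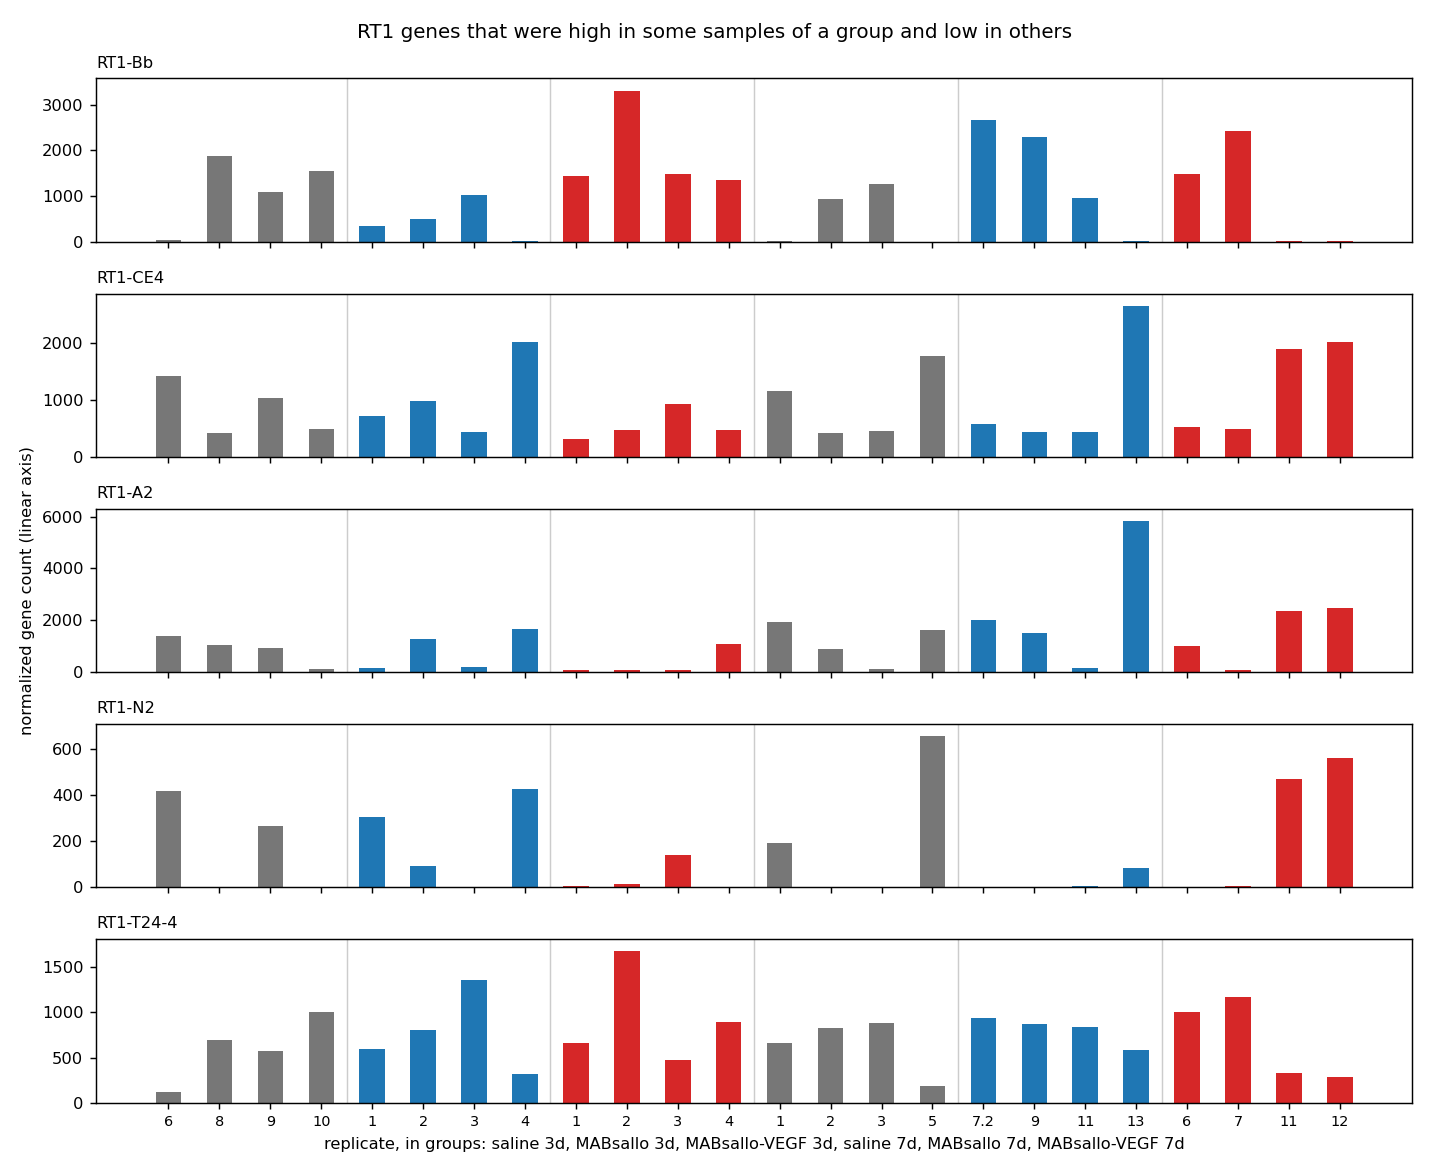
Normalized gene counts (linear axes from 0) of RT1-Bb, RT1-CE4, RT1-A2, RT1-N2 and RT1-T24-4 in each of the 24 samples, in the order of the 6 groups, with 1 bar per sample. RT1-Bb was at 6.29 to 34.4 in 7 samples, and these were the 7 highest samples for RT1-CE4.

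The 2 urethras labelled as recovered, MABsallo-VEGF replicates 6 and 7 at 7d, were compared with the other 10 samples of 7d. These 10 included the saline and MABsallo samples, so recovery cannot be told apart from treatment in this comparison. With limma 0 of the 29 members fitted there were called, as were 0% of all 15285 genes tested, and 1 member had an unadjusted p below 0.05 against 4.89% of all genes. This was Tap2, with 29.02 and 25.67 normalized counts in the recovered urethras and 0 to 20.02 in the others (2.84 ± 1.11, adjusted p = 0.93). edgeR and DESeq2 called no member, where they called 0% and 0.0697% of all genes. Against the other 2 MABsallo-VEGF samples of 7d alone, 0 of 31 members and 0 of 16287 genes were called with limma. There 5 members had an unadjusted p below 0.05, and the share of all genes is not given here. Cd74 in the recovered urethras, at 12054 and 11173, lay beside the 11488 and 16061 of the other MABsallo-VEGF samples of 7d.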

How the data were processed

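RNA of 24 rat urethras was made into Lexogen QuantSeq 3ʹ mRNA libraries. According to the methods and labels, adapters were removed with fastq-mcf before alignment with HISAT2 to the Rnor6.0 genome. Only uniquely mapped reads were kept, HTSeq assigned them to genes, and the authors scaled the counts by the size factors of DESeq2. The deposited signal is thus a normalized gene count, not a raw count. Dividing by the lowest step of each sample gave whole reads for 100% of values, within 0.01 of a read. Groups and replicate numbers came from the labels. In these labels the sample code begins with the day in every group except MABsallo at 3d, where it begins with another number. The labels do not state what that number means. Whether MABsallo at 3d differed in dose, time or batch was not tested. The design counts 24 rats for the 24 samples.

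The main test was limma 3.58.1 (R 4.3.3) on the log2 of each value after a pseudocount of 1 was added (1 fit of the 6 groups, eBayes with trend, two-sided, Benjamini-Hochberg over all genes with a mean of at least 2). The recovered urethras were tested over the 12 samples of 7d and, as an alternative, against the other 2 MABsallo-VEGF samples of 7d in a fit of all samples. edgeR 4.0.16 (quasi-likelihood, TMM) and DESeq2 1.42.0 (Wald, unshrunk) on the recovered reads were alternatives, as were a filter at a mean of 10 or none, a pseudocount of 5, totals made equal, fits of the compared groups alone, a block for the replicate number, and the omission of samples. The class II share without RT1-Bb was chosen after seeing the data. Each test was checked beforehand on simulated counts. In fits without 1 sample of a group, all groups still shared 1 estimate of the spread.

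Members, gene lists and markers (macrophage and monocyte, dendritic, B, T and NK, endothelial, smooth and striated muscle, urothelium) were chosen with earlier results of these data known. Named were all partners and class II genes, RT1 genes called in any comparison, the 5 other RT1 genes of highest mean, RT1-A1 and RT1-A2; RT1-N2, RT1-N3, RT1-T24-1, RT1-T24-3 and the genes without reads were named after their values were seen. Promoters came from RefSeq (GRCr8), 250 bases before the start, and the spelling of the motifs was settled after matches of several forms were seen. Ciita, Nlrc5, RT1-CE7, RT1-DMb, RT1-M2 and RT1-M4 had no promoter entry.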

Additional observations from a re-analysis of the deposited data

Results flagged for a closer look

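Single samples that lay far from the other 3 of their group were looked for by Dixon's ratio at its 95% critical value for 4 samples, over 142 combinations of a member and a group. It picked out 11 of the 142, all of them high values. Chance gives about 1 in 20 of the 142 if values are normally distributed. The ratio was taken on the linear scale of the counts, and whether 11 is an excess was not tested. Of the class I genes these were RT1-A2 in MABsallo-VEGF 3d replicate 4 (1086 normalized counts against 83.3 to 91.9 in the others), RT1-CE4 in MABsallo 7d replicate 13 (2652 against 435.4 to 573), RT1-A1 in saline 7d replicate 3 (1219 against 333.3 to 463.4) and RT1-T24-3 in MABsallo-VEGF 3d replicate 4 (779.2 against 111 to 151.4). RT1-N2 was high in MABsallo-VEGF 3d replicate 3 (141.3 against 0 to 16.7) and in MABsallo 7d replicate 13 (83 against 0 to 8.34).

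On the class II side, RT1-Bb was high in MABsallo-VEGF 3d replicate 2 (3309 against 1349 to 1473) and so was Ciita in the same sample (216.7 against 40.1 to 65.6). RT1-DMa was high in saline 3d replicate 8 (623.2 against 199.7 to 203.7), and Cd74 was high in MABsallo 3d replicate 3 (4514 against 1953 to 2024). Tap2 had 42.23 normalized counts in saline 3d replicate 10 against 0 to 6.89 in the others. The causes were not tested.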

How the results depend on the processing

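Of the 212 recomputed counts of called members, 196 stayed within 1.5 times the count reported. In most comparisons the count reported was 0, and a recomputed 0 counted as unchanged. This share therefore says little about the comparisons in which members were called. For MABsallo against saline at 3d, alternatives to the 8 called members gave 7 to 10, except 0 with only the groups compared, and leaving out 1 sample gave 2 to 9. For MABsallo-VEGF against saline at 3d, 4 members were called without the 2 samples that stood apart, and leaving out 1 sample gave 0 to 2, with 2 without MABsallo-VEGF replicate 4. For MABsallo-VEGF at 3d against 7d the count of 2 became 0 with a filter at a mean of 10, which removed both genes called (RT1-DOb and Nlrc5), and 5 without the 2 samples, and leaving out 1 sample gave 0 to 5. The count was 3 with equal totals, with the 2 groups alone and with edgeR. Without MABsallo-VEGF 3d replicates 2 or 3 or 7d replicate 6 it was 0, without 3d replicate 4 it was 5, and without 7d replicates 7, 11 or 12 it was 1. The interaction of MABsallo with the day gave 3 calls without the 2 samples, 4 with DESeq2 and 0 whichever sample was left out. Leaving out 1 sample gave 8 to 10 calls for MABsallo at 3d against 7d. Other than the construction of the filter, the causes were not tested.

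The class II median of MABsallo against saline at 3d stayed between -1.94 and -1.34 under every alternative run, and the class I median between -0.01 and 0.43. Scaling to the same total moved the median of all genes in that comparison from 0.07 to -0.19 and the class I median to -0.0078. In the same comparison, the difference of Psmb9 turned to -0.1697 and that of Tapbp to -0.1413 with the same total, and Psmb9 to -0.0939 without the 2 samples and -0.032 with edgeR. Leaving out 1 sample gave -0.1629 to 0.0859 for B2m (above 0 without saline replicate 8 or MABsallo replicate 1), -0.4614 to 0.0626 for Psmb8 (above 0 without saline replicate 8), -0.0939 to 0.2384 for Psmb9 (below 0 without saline replicate 6 or MABsallo replicate 3) and -0.1106 to 0.453 for Tapbp (below 0 without MABsallo replicate 1 or 3). For MABsallo-VEGF against saline at 3d, RT1-Ba turned to -0.1444 and RT1-Da to -0.0242 without the 2 samples and RT1-DMb to 0.0509 with DESeq2. Leaving out 1 sample gave -0.6438 to 0.0121 for Cd74 (above 0 without saline replicate 8), -0.4971 to 0.259 for RT1-DMa (above 0 without saline replicate 8 or MABsallo-VEGF replicate 1) and -0.4995 to 0.1214 for RT1-DMb (above 0 without MABsallo-VEGF replicate 1 or 3). None of these was called in either fit. Without the highest gene of each class, the mean class II share moved to 66.4% in MABsallo-VEGF at 3d, 49.7% in saline at 7d and 60.1% in MABsallo-VEGF at 7d.

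MABsallo and MABsallo-VEGF at 3d share the replicate numbers 1 to 4. Deviations from the group means correlated by 0.222, 0.151, 0.0734 and 0.254 between samples of the same number. Replicates 1, 2 and 4 matched their own number best, and replicate 3 matched 2 best. With so few samples, this check cannot decide whether the 2 groups were paired by number. With the replicate number as a block 0 members were called between them, as without it, and the class II median was 1.79. No paired analysis of the other comparisons was made, because their groups share fewer than 2 numbers.

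RT1-DOb, RT1-DOa, Nlrc5, RT1-Db2, RT1-CE5 and RT1-T24-1 rest on few reads a sample, and MABsallo at 3d was sequenced least deeply, where 1 read was worth 5.42 to 9.23 normalized counts. Their calls moved with the settings, as RT1-DOb in MABsallo against saline at 3d was called with a pseudocount of 5, with equal totals and without the 2 samples that stood apart. Intervals of counting were not computed, and 4 samples a group limit every comparison.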

Other observations

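The other cell type markers, from lists chosen with earlier results of these data known, were compared between MABsallo and saline at 3d with limma. In this comparison 2.86% of all genes were called lower and 9.40% higher. Of 12 T and NK cell markers 0 were called, with a median log2 difference of -0.02, and Gzmb was at 0 in all samples. Of 8 endothelial markers 3 were called lower, Emcn, Tie1 and Cldn5, and 7 had a negative difference, with a median of -0.82. Without the 2 samples that stood apart 4 were called lower, where 18.1% of all genes were called in either direction. Of 4 striated muscle markers 1 was called higher, Tnnt3 (1.55), and the call was lost without the 2 samples that stood apart. Of 6 smooth muscle and 5 urothelium markers 0 were called, with medians of 0.10 and 1.23. The part of these cells in the results was not tested.

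Class II counts per 100 counts of macrophage markers were 18.8 to 40.5 in saline, 14.6 to 71.7 in MABsallo and 32.5 to 88.1 in MABsallo-VEGF at 3d. At 7d they were 19.6 to 37.6 in saline, 15.6 to 81.8 in MABsallo and 54.9 to 97.1 in MABsallo-VEGF. In MABsallo-VEGF at 7d every sample was above every saline sample of 7d. The macrophage markers summed to 12545 to 26855 normalized counts there and to 31049 to 43437 in saline at 7d. This ratio was computed after the levels were seen and was not tested.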
